A study of Drosophila melanogaster with 6 samples.

Results

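Valine tRNAs carry 1 of 3 anticodons in the fly genome, AAC, CAC or TAC, and the tRNAs with each anticodon form an isoacceptor. The fragments described here are all small RNA sequences listed at a tRNA gene whose name ends in one of these anticodons. The files name these genes ValAAC, ValCAC and ValTAC, written Val-AAC, Val-CAC and Val-TAC below. The fragments came from 13 of the 297 listed tRNA genes. Of these, 4 were ValAAC genes on arms 2R (2 genes) and 3L (2 genes), 7 were ValCAC genes on 3R and 2 were ValTAC genes on 3L. All 13 matched a name in the RefSeq gene table. Together they held 862 of 199972 tRNA-derived reads, as 59 distinct sequences, none of which was shared with another isoacceptor.

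The reads came from 6 small RNA libraries of adult male Drosophila melanogaster bodies without testes, 1 library for each group, so no group was replicated. Both genotypes were in a w1118 background: the heterozygotes carried 1 mutant allele (+/Dnmt2 mutant), and the mutants carried it on both chromosomes (Dnmt2 mutant/Dnmt2 mutant). Each genotype was sampled untreated at 10 days (control), at 10 days after 1 h at 37 °C and 5 h at room temperature (heat shock), and at 12 days, 2 days after the same heat treatment (recovery). Recovery and age cannot be told apart, because recovery flies were 2 days older. Below, 3 values given for a genotype follow the order control, heat shock, recovery. The name heterozygous is taken from the sample labels, whereas the series title has wild-type for the same flies. The whole carcass was used, so a change in the cells that make up the body and a change within cells cannot be told apart. Nothing in the labels ties the libraries to separate cultures, so a p-value here reflects only how these libraries vary.

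Transfer RNAs read codons on the ribosome, and under stress they can be cut in the anticodon loop into a 5′ piece and a 3′ piece. Dnmt2 is a methyltransferase that places a methyl group on the cytosine at position 38 of that loop, close to the anticodon at positions 34 to 36. Asp-GTC, Gly-GCC and Val-AAC are its known substrates, and methylation at this site is known to protect substrate tRNAs from cleavage. Val-CAC and Val-TAC are not usually counted among them, although the listed sequences of all 3 valine isoacceptors had a C at position 38.

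Val-CAC sequences fell into 2 kinds, which all of its reads told apart. One, here Val-CAC-1, was listed at a single gene, tRNA:Val-CAC-1-1. The other, Val-CAC-2, was listed at 6 genes, tRNA:Val-CAC-2-1 to tRNA:Val-CAC-2-6. All 7 genes lie on chromosome arm 3R, as the files name them. Counting from base 1 of the 73-nt tRNA, with the Val-CAC-2 base first, the kinds differ at C5T, C16T, G68A and G69A. The sequences below were joined from overlapping reads of the deposited lists, with the anticodon in capitals, and are shown because every fragment result refers to them.
Val-CAC-2 tRNA: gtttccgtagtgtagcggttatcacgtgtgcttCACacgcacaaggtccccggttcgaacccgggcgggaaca
Val-CAC-1 tRNA: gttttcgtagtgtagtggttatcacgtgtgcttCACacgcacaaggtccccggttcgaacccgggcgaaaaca

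The most frequent valine fragment of each kind was the first 33 bases of the tRNA, which ends at the base before the anticodon. They are shown with the bases that tell the kinds apart in capitals, since the genotype results are also given for each kind.
Val-CAC-2, 33 nt: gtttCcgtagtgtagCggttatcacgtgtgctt
Val-CAC-1, 33 nt: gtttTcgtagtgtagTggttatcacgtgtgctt

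The main 3′ fragments of Val-CAC ran from base 35 to base 73, the last base that the gene encodes. Val-TAC reads came mainly from this side of the tRNA, and the Val-TAC sequence with the same ends is shown beside the Val-CAC-2 one.
Val-CAC-2, 39 nt: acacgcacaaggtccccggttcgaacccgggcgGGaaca
Val-TAC, 39 nt: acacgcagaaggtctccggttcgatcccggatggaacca
The capitals again mark bases at which the Val-CAC kinds differ.

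The libraries differed in size. The lists held between 5113 reads (mutant recovery) and 67477 reads (mutant control), and these totals are those of the tRNA lists, not sequencing depth. Mutant recovery held only 13 valine reads.

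Val-CAC supplied nearly all valine fragments in every library. The heterozygote libraries held 79, 291 and 189 of its reads, the mutant libraries 152, 103 and 13. For Val-AAC, the Dnmt2 substrate, heterozygotes gave 3, 9 and 5 reads, mutants 1, 2 and 0. For Val-TAC these counts were 2, 4 and 5 against 2, 2 and 0. Both minor isoacceptors were below the Val-CAC count in each of the 6 libraries.

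Val-CAC made up 94.0% to 100% of the valine reads of a library. The log2 ratio of Val-CAC to Val-AAC reads, with 0.5 read added to each, was 5.22 ± 0.77 (mean ± SD over 6 libraries, exact sign-flip permutation p = 0.031, Benjamini-Hochberg adjusted over 3 ratios p = 0.0469). The ratio of Val-CAC to Val-TAC was 5.36 ± 0.51 on the same scale (exact sign-flip permutation p = 0.031, adjusted p = 0.0469), and Val-CAC was higher in 6 of 6 libraries in both. The value 0.031 is the smallest that 6 libraries allow, 2-sided. Val-TAC and Val-AAC did not differ beyond this spread, with a log2 ratio of -0.14 ± 0.60 (exact sign-flip permutation p = 0.75).

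The same isoacceptor was highest per gene. Val-CAC held 118 reads per listed gene, Val-TAC 7.50 and Val-AAC 5.00, summed over the 6 libraries. The Val-AAC counts cover the 4 listed genes, whereas the RefSeq gene table names 6. Within Val-CAC the single Val-CAC-1 gene had 358 reads, whereas the 6 Val-CAC-2 genes had 469, or 78.2 per gene. Reads of identical genes cannot be assigned to one of them. Among all 48 features, Val-CAC ranked 13 by reads, Val-AAC 40 and Val-TAC 44. The other known substrates had far more reads, 6148 for Asp-GTC and 101853 for Gly-GCC.

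As a share of listed tRNA reads, Val-CAC was 0.515% in heterozygote control (95% Wilson interval 0.414 to 0.641), 0.632% (0.563 to 0.708) in heat shock and 0.663% (0.575 to 0.764) in recovery. The mutant shares were 0.225% (0.192 to 0.264), 0.275% (0.227 to 0.333) and 0.254% (0.149 to 0.435). The 3 mutant values lay below the 3 heterozygote values, while the intervals of mutant recovery and heterozygote control overlap. The Val-AAC share was 0.0196%, 0.0195% and 0.0175% for heterozygotes, against 0.00148% and 0.00534% for mutant control and heat shock. In mutant recovery it was not seen, which allows up to 0.0587%, more than the heterozygote shares, so no lower level could be detected there. Intervals and limits cover counting error only, since reads without molecular identifiers are not independent molecules.

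**Figure D1:**
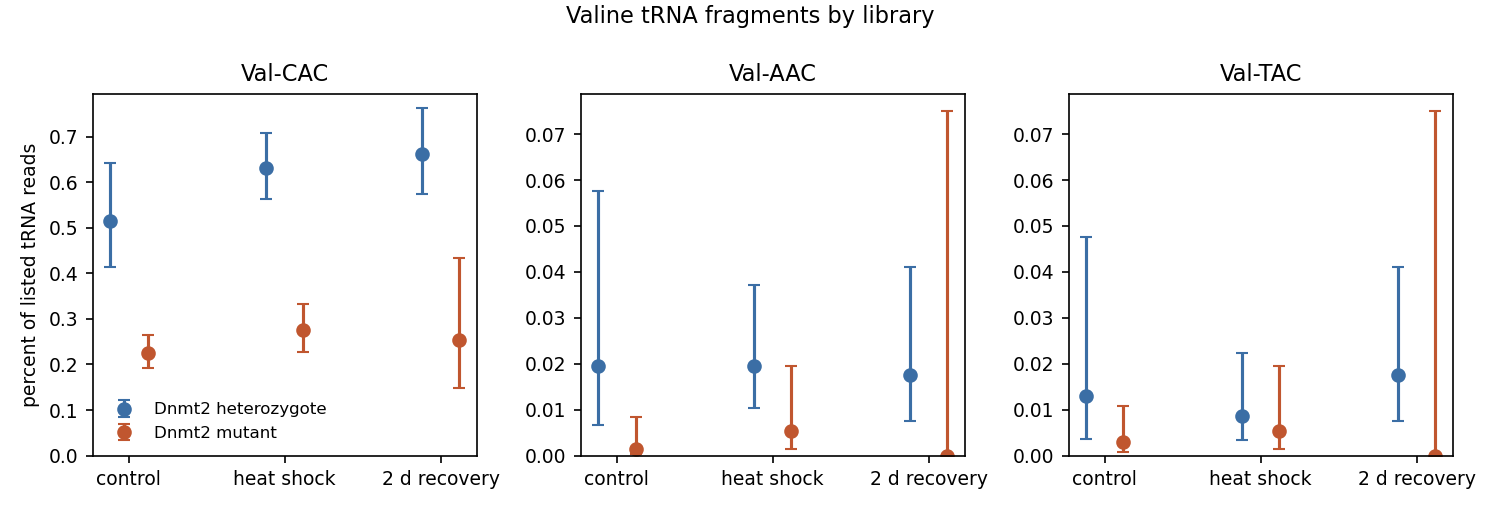
Share of listed tRNA reads (percent, linear axes from 0 that differ between panels) for Val-CAC, Val-AAC and Val-TAC in each library. Points are single libraries and bars 95% Wilson intervals. The mutant Val-CAC points, 0.225% to 0.275%, lie below the heterozygote points, 0.515% to 0.663%, while the intervals of Val-AAC and Val-TAC are wide.

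The first comparison asked which fragments differ between the genotypes. Val-CAC fell in the mutants across the 3 conditions, with a log2 fold change of -0.96 ± 0.29 (SE, 3 libraries against 3, edgeR adjusted p = 0.00986). The fit held genotype and condition as additive terms with 2 residual degrees of freedom, and its spread was pooled over 22 features, of which 13.6% were called lower and 27.3% were called in either direction. The median change of all features was 0.07. Taken condition by condition, the log2 ratio of mutant to heterozygote was -0.86 (95% exact interval -1.27 to -0.46) in control, -1.08 (-1.43 to -0.77) after heat shock and -0.88 (-1.84 to -0.09) in recovery. The direction was the same in 3 of 3 conditions. Leaving out one library ended the edgeR call for heterozygote heat shock (adjusted p = 0.226), mutant heat shock (adjusted p = 0.675) and mutant recovery (adjusted p = 0.0960).

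One feature of the libraries moves with genotype here. In listed reads of 51 nt from all tRNAs, a C stood in place of the A at base 24 in 15.1%, 11.3% and 13.1% of mutant reads, and in at most 0.0917% in any heterozygote library. At base 7 the share was 15.2%, 14.1% and 16.4% in mutants and at most 0.234% in any heterozygote library. Both Val-CAC kinds have a G at base 7 and an A at base 24. None of the 745 Val-CAC reads of up to 35 nt had a mismatch, so short reads with C at base 24 would be missing from the mutant lists. With short reads corrected for the rate in each library, the log2 fold change was -0.90 ± 0.27 (edgeR adjusted p = 0.00668). The correction covers only this loss of short reads. An effect of Dnmt2 and any other difference between the mutant and heterozygote libraries cannot be told apart.

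The 2 kinds of Val-CAC were then taken apart: Val-CAC-2 fell in the mutants, and the Val-CAC-1 value did not pass the test. Heterozygotes gave 53, 181 and 115 Val-CAC-2 reads, mutants 61, 53 and 6. For Val-CAC-1 the counts were 26, 110 and 74 against 91, 50 and 7, so that mutant control and recovery held more Val-CAC-1 than Val-CAC-2 reads. When each kind was fitted as its own feature, Val-CAC-2 fell by 1.27 ± 0.30 on the log2 scale (edgeR adjusted p = 0.000655), where 6.25% of 32 features were called lower. Val-CAC-1 had a value of -0.22 ± 0.33 (edgeR adjusted p = 0.674), a value that does not show it to be the same in both genotypes. The fit did not test whether the 2 kinds differ in their change. This split, and its looser filter of 10 counts in at least 3 libraries, were chosen after the data were seen. Leaving out heterozygote heat shock (edgeR adjusted p = 0.151), heterozygote recovery (edgeR adjusted p = 0.0908) or mutant heat shock (edgeR adjusted p = 0.127) ended the Val-CAC-2 call.

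The ratio of the kinds within a library does not depend on scaling. Val-CAC-2 was 67.1% of Val-CAC reads in heterozygote control (95% Wilson interval 56.1 to 76.4), 62.2% (56.5 to 67.6) after heat shock and 60.8% (53.7 to 67.5) in recovery. In the mutants it was 40.1% (32.7 to 48.1), 51.5% (41.9 to 60.9) and 46.2% (23.2 to 70.9). The 3 mutant values lay below the 3 heterozygote values, with a mean difference of -17.5 points. The exact sign-flip permutation p over the 3 conditions was 0.25, the smallest that 3 pairs allow. Fisher's exact test, which compares 2 libraries and not the genotypes, gave an adjusted p of 0.000529 for the control pair, 0.156 for heat shock and 0.478 for recovery, over 5 pairs of libraries.

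**Figure D2:**
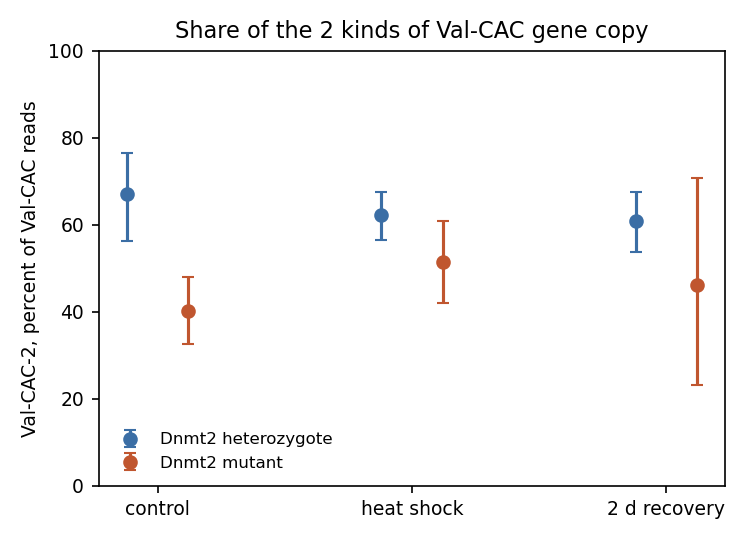
Val-CAC-2 reads as a percent of Val-CAC reads in each library (axis from 0 to 100%), by condition and genotype. Points are single libraries and bars 95% Wilson intervals. Heterozygote points lie between 60.8% and 67.1% and mutant points between 40.1% and 51.5%.

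The 33-nt and 34-nt fragments had the same order of values. They make up most of the Val-CAC reads, so this is no separate support. For the 33-nt fragment of Val-CAC-2 the counts were 35, 133 and 71 for heterozygotes against 38, 38 and 3 for mutants. Its Val-CAC-1 counterpart was counted 17, 77 and 41 times against 53, 27 and 3. Of these 33-nt reads Val-CAC-2 made up 67.3%, 63.3% and 63.4% for heterozygotes, against 41.8%, 58.5% and 50% for mutants. The 34-nt fragment, which ends at the first anticodon base, was a Val-CAC-2 read in 67.1% (56.5 to 76.1) of 85 heterozygote reads and 31.7% (19.6 to 47.0) of 41 mutant reads, summed over conditions. The 30-nt fragment had the opposite order, with 7 Val-CAC-2 and 10 Val-CAC-1 reads in heterozygotes but 6 and 4 in mutants. The 32-nt fragment of Val-CAC-1 was counted 0, 7 and 4 times for heterozygotes and 7, 2 and 1 times for mutants. The A at base 24, where C was read in mutants, is present in both kinds.

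The 33-nt Val-CAC-2 fragment was the only valine sequence that passed the abundance filter among 39 single sequences. It passed only through the heterozygote libraries, where it is high, reaching the filter in 3 heterozygote and 0 mutant libraries. Its log2 value of -1.35 ± 0.23 is therefore a description, and the same holds of its place among the 10.3% of sequences that edgeR called lower and the 15.4% called in either direction. Fitted without the filter, it had a value of -1.47 ± 0.68 (edgeR adjusted p = 0.902). By condition, the log2 ratio of mutant to heterozygote for all Val-CAC-2 reads was -1.56 (-2.17 to -1.05) in control, -1.34 (-1.84 to -0.92) after heat shock and -1.24 (-2.78 to -0.14) in recovery. For Val-CAC-1 it was -0.01 (-0.65 to 0.68), -0.72 (-1.25 to -0.24) and -0.42 (-1.81 to 0.67).

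**Figure D3:**
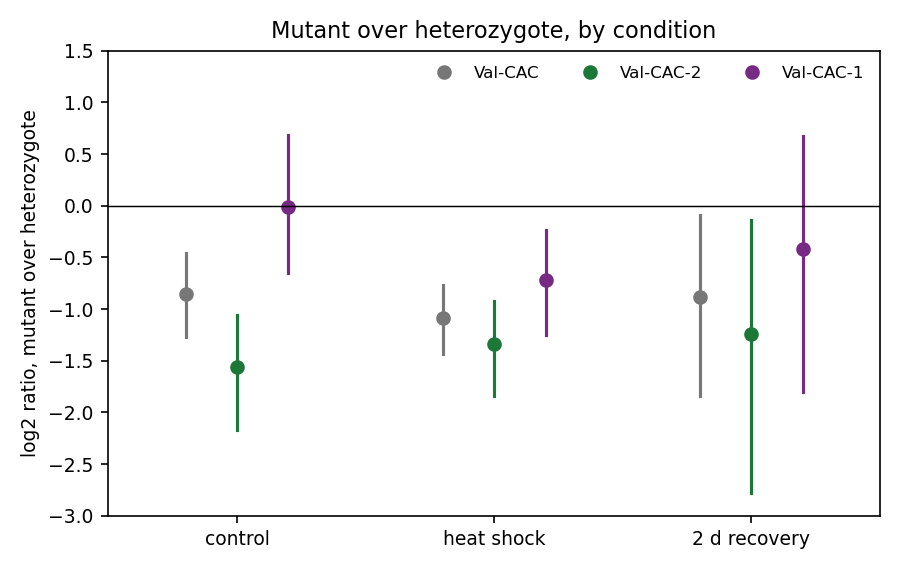
Log2 ratio of mutant to heterozygote (scaled counts, prior count of 2) in each condition for all Val-CAC reads and for the Val-CAC-2 and Val-CAC-1 reads. Points are single pairs of libraries and bars exact 95% intervals for counting error. Val-CAC-2 lies between -1.24 and -1.56, and Val-CAC-1 between -0.72 and -0.01.

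Val-AAC, as the Dnmt2 substrate, had 17 reads in heterozygotes and 3 in mutants, too few to pass the filter. Fitted without the filter, its log2 fold change was -2.19 ± 1.14 (edgeR adjusted p = 0.159, 48 features). The ratio of mutant to heterozygote was -1.73 (-9.11 to 0.24) in control and -1.20 (-5.02 to 0.51) after heat shock. Val-AAC was 3.57%, 2.96% and 2.51% of valine reads in heterozygotes and 0.645%, 1.87% and 0% in mutants (the last 0 of 13 reads, 95% Wilson interval up to 22.8%), lower in 3 of 3 conditions (mean -2.18 points, exact sign-flip permutation p = 0.25, the smallest possible). Val-TAC had a value of -1.10 ± 1.13 in the fit without the filter (edgeR adjusted p = 0.573). For both isoacceptors a difference between the genotypes was not detectable at this depth.

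Of the 3 known substrates, Asp-GTC and Gly-GCC had enough reads to be tested. Asp-GTC fell by 0.80 ± 0.29 on the log2 scale (edgeR adjusted p = 0.0310) and Gly-GCC had a value of 0.68 ± 0.41 (edgeR adjusted p = 0.224). The list therefore counted 0 higher and 1 lower with a median of -0.06, against a median of 0.07 over all features. With 27.3% of all features called in either direction and 13.6% called lower, a count of 1 in 2 shows nothing particular to the list. Of the valine isoacceptors only Val-CAC was tested. Among tRNAs with an A at position 34, like Val-AAC, 3 of 8 were tested and edgeR called 0 of them for genotype and 0 for heat shock (0 and 0 at an unadjusted p under 0.05). Over all features 27.3% were called for genotype and 31.8% for heat shock, so a count of 0 in 3 shows nothing particular to these tRNAs.

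The second comparison asked how heat changes the fragments. The Val-CAC log2 fold change from control to heat shock was 0.33 ± 0.33 (2 libraries against 2, edgeR adjusted p = 0.399), where 31.8% of 22 features were called. The median of all features was -0.39, so Val-CAC lay 0.72 above it. A change of scaling moves all features by nearly the same amount. The distance of 0.72 with RLE scaling and 0.71 with total counts is therefore no further support. The scaling moved the higher and lower calls from 2 and 5 to 4 and 2 under RLE. In heterozygotes the log2 ratio of heat shock to control was 0.44 (0.08 to 0.82), and in mutants 0.21 (-0.16 to 0.59). The direction was the same in both genotypes and the difference between them was not tested.

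By kind, the heat shock ratio of Val-CAC-2 was 0.33 (-0.12 to 0.80) in heterozygotes and 0.56 (0.02 to 1.13) in mutants. For Val-CAC-1 it was 0.62 (0.01 to 1.32) in heterozygotes and -0.08 (-0.61 to 0.43) in mutants. In the fit by kind neither passed, at 0.44 ± 0.34 for Val-CAC-2 (edgeR adjusted p = 0.350) and 0.25 ± 0.37 for Val-CAC-1 (edgeR adjusted p = 0.641), where 21.9% of 32 features were called. The 33-nt Val-CAC-2 fragment had a value of 0.35 ± 0.26 (edgeR adjusted p = 0.373), where 10.3% of 39 sequences were called.

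After 2 days of recovery, the Val-CAC log2 fold change from control was -0.22 ± 0.37 (edgeR adjusted p = 0.685), a comparison in which 0% of features were called by edgeR (1 of 22 at an unadjusted p under 0.05) and 0 by DESeq2. The sign depended on the scaling, with 0.07 under RLE and 0.29 under total counts. Against heat shock the difference was -0.55 ± 0.36 (edgeR adjusted p = 0.301), where 4.55% of features were called. These recovery values rest in part on the mutant recovery library, with 13 Val-CAC reads. In heterozygotes the ratio of recovery to heat shock was -0.62 (-0.90 to -0.36).

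The third comparison set the ends and lengths of the isoacceptors side by side. Val-CAC and Val-AAC were seen mainly as 5′ fragments, and Val-TAC mainly as pieces of the 3′ side. Listed sequences of all tRNAs were 30 to 51 nt long, and no valine read ran past base 73. Pieces outside these limits could be missing or listed in shortened form, so the shares below are those of listed reads. Of 827 Val-CAC reads, 779, or 94.2% (95% Wilson interval 92.4 to 95.6), began at base 1 and are 5′ fragments, 38 were 3′ fragments that reached base 73, and 10 were internal. The 5′ share lay between 91.0% and 100% in the 6 libraries. Of the 20 Val-AAC reads 18, or 90.0% (69.9 to 97.2), were 5′ fragments. Of the 15 Val-TAC reads only 3, or 20% (7.05 to 45.2), were 5′ fragments, 8 were 3′ fragments and 4 lay inside the tRNA.

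The share of 5′ fragments was lower for Val-TAC than for Val-CAC in 5 of the 5 libraries that held Val-TAC reads, with a mean difference of -74.9 points (exact sign-flip permutation p = 0.0625, the smallest that 5 libraries allow; adjusted over 2 tests p = 0.125). For Val-AAC the mean difference from Val-CAC was -6.12 points (exact sign-flip permutation p = 0.812). The 3 Val-TAC 5′ fragments ended at base 30, and the 8 3′ fragments began at bases 35, 37, 39 and 40. The shortest listed sequence was 30 nt, so 5′ fragments that ended before base 30 could not be seen. The comparison with Val-CAC was added after the data were seen and rests on 15 reads.

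Val-CAC 5′ fragments ended mainly in front of the anticodon. Of 779, 536 or 68.8% (65.5 to 72.0) ended at base 33, 126 or 16.2% (13.8 to 18.9) at base 34, and fewer reads at each other base. The share that ended at base 33 was 70.3%, 75.5% and 65.1% in heterozygotes and 62.3%, 67.7% and 46.2% in mutants. It was lower in the mutant in 3 of 3 conditions (mean -11.6 points, exact sign-flip permutation p = 0.25, the smallest possible), and without 51-nt reads the mean was -4.76 points. The share of ends beyond base 34 was 1.35%, 3.597% and 5.81% in heterozygotes and 4.11%, 13.5% and 46.2% in mutants. It was higher in the mutant in 3 of 3 conditions (mean 17.7 points, exact sign-flip permutation p = 0.25). The differences were 2.76, 9.94 and 40.3 points, the last from 6 of 13 mutant reads, and without 51-nt reads the mean was 9.45 points. The most frequent of these ends was base 51, with 15 reads. These shares are of uncorrected counts. Mutant reads of up to 35 nt with C at base 24 would be missing from them, whereas longer reads with that C are listed. How far this moves the shares between the genotypes was not tested.

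The 51-nt reads were 0%, 1.03% and 0% of Val-CAC reads in heterozygotes and 0.658%, 8.74% and 23.1% in mutants. The mutant recovery value stands on 3 of 13 reads. These shares too were not corrected for short reads that would be missing from the mutant lists. No listed sequence was longer than 51 nt, so the lists do not show whether these RNAs went on past that base.

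**Figure D4:**
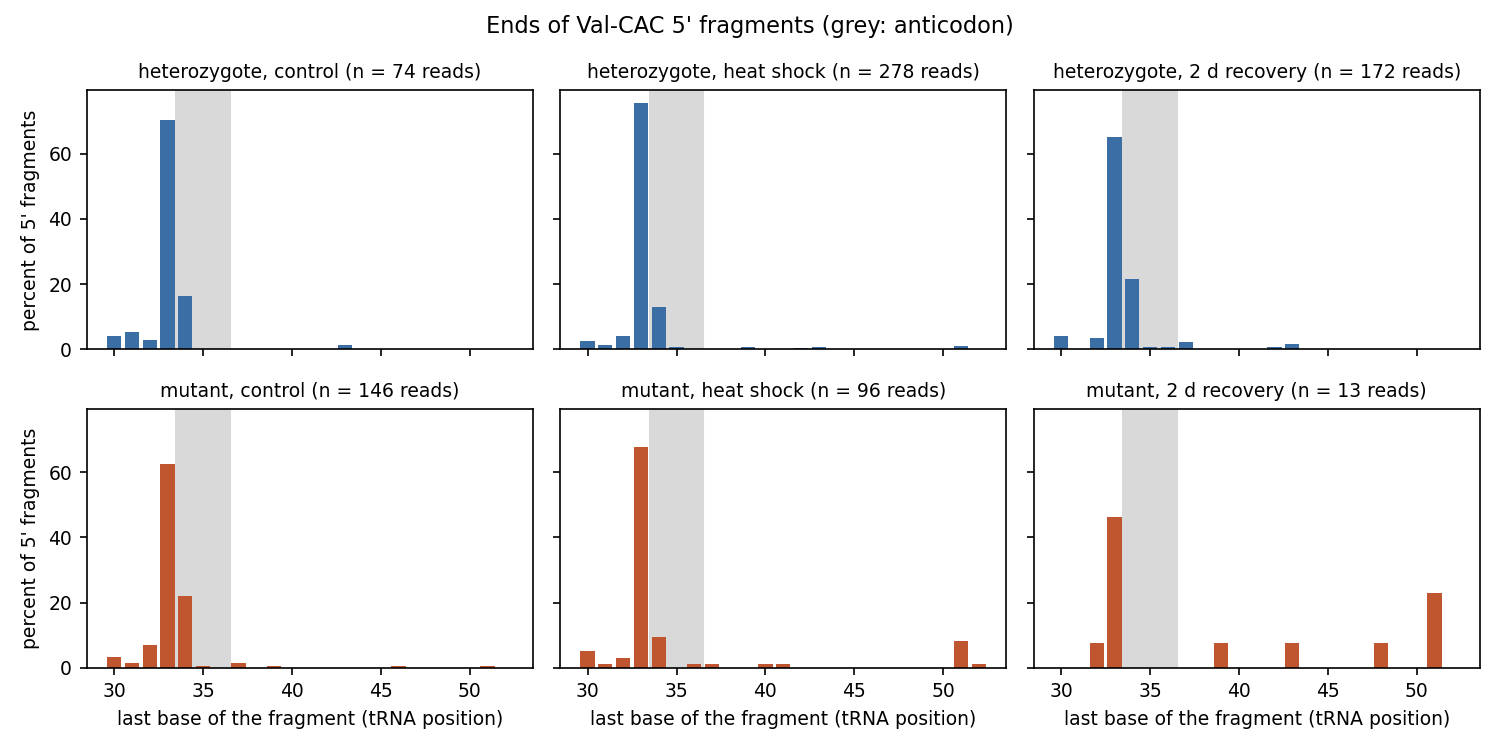
Last base of Val-CAC 5′ fragments (horizontal axis, tRNA position) as a percent of 5′ fragments in each library, with the anticodon positions 34 to 36 in grey. Bars at base 33 are the tallest in all 6 libraries, from 46.2% to 75.5%, and bars at base 51 appear mainly in the mutant heat shock and recovery libraries.

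The Val-CAC 3′ fragments began mainly at bases 35 and 37, inside and just after the anticodon. Of 38 reads, 20 began at base 35, or 52.6% (37.3 to 67.5), and 12 at base 37, or 31.6% (19.1 to 47.5). The 39-nt 3′ fragment of Val-CAC-2 was counted 2, 7 and 2 times for heterozygotes against 1, 1 and 0 for mutants, and that of Val-CAC-1 2, 1 and 2 times against 0, 2 and 0. Val-CAC-2 made up 73.7% (58.0 to 85.0) of the 3′ reads over all libraries, at 22 of 30 heterozygote and 6 of 8 mutant reads. This is 73.3% (55.6 to 85.8) for heterozygotes and 75% (40.9 to 92.9) for mutants. It was 3 of 5 heterozygote against 4 of 4 mutant reads in control, and 8 of 10 against 2 of 4 after heat shock. Mutant recovery had 0 such reads. With 8 mutant reads, a lower share on this side of the tRNA could not be detected.

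Val-CAC reads were more often 33 nt long than the pooled reads of tRNAs other than valine. Reads of 33 nt made up 65.8%, 72.2% and 59.3% of Val-CAC reads in heterozygotes and 59.9%, 63.1% and 46.2% in mutants. Over all reads of other tRNAs the share was 27.6%, 23.96% and 25.4% in heterozygotes and 18.1%, 24.3% and 23.2% in mutants. Val-CAC was higher in 6 of 6 libraries, by 37.3 points on average (exact sign-flip permutation p = 0.031, the smallest possible). This comparison was also added after the data were seen. The length was the most frequent one of Val-CAC in these same reads, so the p-value is no support. Gly-GCC alone gave 101853 reads to the pool, and no other tRNA was compared singly. Val-AAC reads were 33 nt long in 17 of 20 cases.

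Nearly all Val-AAC 5′ fragments were listed with the same end. Of 18, 17 ended at base 33, counted 3, 8 and 4 times for heterozygotes against 1, 1 and 0 for mutants, and 1 ended at base 30. The lists limit what this end can show. The A at position 34 of Val-AAC is converted to inosine in the cell, which is read as G. Among reads of up to 35 nt that cover position 34 of the 8 isoacceptors with an A there, 3 had A and 0 had G. Among reads of 36 to 51 nt, 150 of 176 had G, of which 94 were Ile-AAT and 41 Pro-AGG reads, while Ala-AGC had G in 0 of 5. The 1 Val-AAC read that covered position 34 had A34G, in the heterozygote heat shock library. A Val-AAC fragment that ended at base 34 with inosine could therefore be missing from the lists, so that Val-AAC would be undercounted. It could also be listed in shortened form at 33 nt, and the lists do not show which. The share of Val-AAC fragments that ended at base 34 thus cannot be read from them. For Val-CAC, which has C there, 130 of 737 5′ reads of up to 35 nt ended at base 34 or 35.

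Across the 6 libraries, Glu-CTC had the level most like Val-CAC (Pearson r = 0.85 of log2 CPM, counts scaled to library size, 21 isoacceptors compared), followed by Asp-GTC (0.72) and Arg-CCT (0.70). Within a library all isoacceptors share 1 depth and scaling, so the values are a description. The median r was -0.27. Like Val-CAC, Glu-CTC had mutant to heterozygote ratios below 0 in every condition, at -0.99, -0.78 and -0.49, and Asp-GTC at -1.43, -0.81 and -0.13. Arg-CCT differed from this pattern, with -0.21, -0.45 and 0.12.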

How the data were processed

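Small RNAs of 25 to 70 nt were sequenced from 6 samples, per the labels' protocols. The authors deposited raw read counts, as whole numbers for each sequence at each tRNA gene, as the file headers show. Bowtie and the build dm3 are named in the submitters' processing notes. Aligner settings: not given in the sources used here. Names alone were taken from the RefSeq gene table, which is of another build, so no coordinates are given. The 2 further Val-AAC genes it names are not listed under a ValAAC name, so they could not be analysed here.

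A sequence listed at several genes was counted once per library. That a read can be listed in shortened form at another gene was inferred from the lists. Such a read was taken off that form. Listing each distinct sequence once gives 920 instead of 862 valine reads. Reads were summed per isoacceptor and placed on the tRNA by position.

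The test of the counts was edgeR 4.0.16 under R 4.3.3 (quasi-likelihood, TMM, Benjamini-Hochberg, threshold 0.05), keeping features that reached, in at least 3 libraries, the CPM that equals 10 counts in the smallest one. The common biological coefficient of variation was 0.231. No feature kept a spread of its own, since the estimated prior weight was infinite. On counts simulated for the genotype comparison with 22 features, the test found 46.5% of the 2-fold changes and 99.5% of the 4-fold ones. These counts were drawn with the common spread of the fit, so any further spread between features or libraries is not covered. Alternatives were RLE, total counts, DESeq2 1.42.0, other filters and read sets, and leaving out libraries. Shares have 95% Wilson intervals. Pair ratios have exact conditional binomial intervals, and a prior count of 2. Python 3.11.15 and SciPy 1.17.1 were used.

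The named items are the valine isoacceptors and their gene copies, every valine sequence with at least 20 reads, list members set beside them, and the 3 isoacceptors most correlated with Val-CAC. The members and lists were chosen with earlier results of these data known.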

Additional observations from a re-analysis of the deposited data

Results flagged for a closer look

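Among the valine isoacceptors and kinds, pairs of libraries moved in opposite directions in the genotypes in 4 cases, and no difference was tested. For Val-CAC-1 the log2 ratio of heat shock to control was 0.62 in heterozygotes and -0.083 in mutants, and that of recovery to control was 0.063 in heterozygotes and -0.35 in mutants. For Val-TAC, with 15 reads in all, the ratio of heat shock to control was -0.27 in heterozygotes and 0.40 in mutants, and that of recovery to heat shock 0.22 and -0.66, the last against 0 reads in mutant recovery. Of these 8 ratios, only the interval of the first excluded 0.

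Among the tRNAs set beside them, the ratio of recovery to control was -0.18 in heterozygotes and 1.12 in mutants for Asp-GTC, and -0.25 and 0.075 for Arg-CCT. The Arg-CCT ratio of mutant to heterozygote was -0.21 in control, -0.45 after heat shock and 0.12 in recovery. These differences were not tested.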

How the results depend on the processing

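Val-CAC stayed lower in the mutants under all 17 alternatives tried (log2 fold change -1.25 to -0.72). In 11 of them, DESeq2 among these, it was still called. The call was lost without the filter on low counts (-0.81, adjusted p = 0.0621), with each distinct sequence once (-0.80, adjusted p = 0.05002) and without the heat shock pair (-0.72, adjusted p = 0.662). Leaving out single libraries gave -1.20 to -0.72 for Val-CAC, -1.54 to -1.17 for Val-CAC-2 and -0.72 to 0.072 for Val-CAC-1, whose sign turned without the heterozygote heat shock (0.072) or the mutant heat shock library (0.058). The heat shock value of Val-CAC stayed above 0 under 14 of 14 alternatives, and none brought a call. The recovery value turned from -0.22 to 0.071 with RLE, 0.29 with total counts, 0.075 with DESeq2 and 0.14 with each distinct sequence once, and without single libraries it ran from -0.20 to 0.27. Recovery against heat shock turned from -0.55 to 0.0031 with total counts.

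Features called between genotypes numbered 6, against 3 without the filter, 2 without 51-nt reads, 1 without the heat shock pair and 1 to 8 without single libraries. Heat shock calls numbered 7, against 3 with total counts and 1 to 9 without single libraries. Recovery calls numbered 0, and 0 to 1 without single libraries. Recovery against heat shock had 1 call, against 0 with total counts, 5 with each distinct sequence once, 3 without 51-nt reads, 5 with short reads corrected and 0 to 3 without single libraries. Single sequences called between genotypes numbered 6, against 11 with total counts, 10 without the filter and 0 to 4 without single libraries. For heat shock they numbered 4, against 2 without the filter and 0 to 4 without single libraries. Val-TAC stood above Val-AAC per listed gene copy (log2 0.86, exact permutation adjusted p = 0.0625). The genotype difference in the 5′ share of Val-CAC turned from 3.02 to -5.42 points with each distinct sequence once. The cause of these changes was not tested. Fragment fits without single heterozygote libraries gave no Val-CAC-2 value for the 33-nt sequence, since it did not pass the filter there.

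Groups of 1 library, 13 valine reads in mutant recovery and 35 reads of Val-AAC and Val-TAC together limit what can be detected. Libraries of the same condition were compared through the condition term of the model.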
